A study of Mus musculus with 4 samples.

Results

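Transcripts of the pancreatic acinar cell, the enzyme-secreting cell of the exocrine pancreas, were examined in RNA sequencing libraries of mouse liver T cells. The 32 genes were picked by symbol from a table of 17454 gene rows. All 32 have a row. They were picked after high values of several of them had been seen in these same libraries, so their levels and their differences between diets are given as a description. Where the calls of a fit over all genes are counted among them, the count stands beside that of all genes and nothing is read from it. The cells were CD45+ CD3+ NK1.1- CD4- CD8- double negative T cells, sorted alive by flow cytometry from the livers of adult C57BL/6 mice. 2 libraries represent mice fed a methionine-choline deficient diet, which is widely used to produce fatty liver inflammation, and 2 represent mice fed a normal diet. The labels name no other treatment. Since it is not stated if replicates were separate or pooled animals, the spread between replicates may be technical. Each library's values sum to between 370112 and 389403 FPKM, with 9712 to 10435 genes at 1 FPKM or more; read depth is unknown.

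Acinar cells make digestive enzymes, many of them as inactive precursors, store them in zymogen granules and release them into the pancreatic duct. Their products are proteases (trypsinogens, chymotrypsinogens, elastases, carboxypeptidases), lipases with their cofactor colipase, amylase and a ribonuclease. Transcription of these genes depends on the PTF1 complex, in which the basic helix-loop-helix protein Ptf1a and its partner Rbpjl bind an E-box and a TC-box. The mouse trypsinogen genes lie inside the T cell receptor beta locus. In the GENCODE vM21 annotation, which is not the authors', 15 genes lie between the variable segment Trbv30 and the first diversity segment Trbd1, 9 of them have a row in the table, and all 5 trypsinogens of the gene set are among these 9.

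The promoters of 4 members are shown because these genes carry the contrast described below: the elastases Cela1 and Cela2a and the trypsinogen Prss2 had both deficient diet libraries below both normal diet libraries, and the trypsinogen Try4 did not. The sequences are RefSeq windows of 250 bases before and 50 after the gene start (build GRCm38.p6), written 5′ to 3′ on the gene's strand. Capitals mark CACCTG, an E-box that PTF1 can bind, and TTTCCC, the core of its TC-box, on either strand (CAGGTG and GGGAAA on the reverse strand). The marked motifs do not overlap each other in these windows.
Cela1, chr15:100687871-100688170, strand -: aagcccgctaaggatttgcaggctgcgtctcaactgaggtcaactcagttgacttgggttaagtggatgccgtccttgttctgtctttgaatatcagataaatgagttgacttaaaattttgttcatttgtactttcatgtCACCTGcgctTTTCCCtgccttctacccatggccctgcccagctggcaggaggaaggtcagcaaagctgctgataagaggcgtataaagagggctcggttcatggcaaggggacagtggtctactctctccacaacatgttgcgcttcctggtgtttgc
Cela2a, chr4:141825956-141826255, strand -: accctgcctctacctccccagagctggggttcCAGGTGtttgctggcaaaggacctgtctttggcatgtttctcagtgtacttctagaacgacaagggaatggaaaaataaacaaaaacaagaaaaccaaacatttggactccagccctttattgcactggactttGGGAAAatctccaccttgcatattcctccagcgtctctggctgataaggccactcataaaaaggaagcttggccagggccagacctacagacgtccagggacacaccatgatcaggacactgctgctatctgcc
Prss2, chr6:41521526-41521825, strand +: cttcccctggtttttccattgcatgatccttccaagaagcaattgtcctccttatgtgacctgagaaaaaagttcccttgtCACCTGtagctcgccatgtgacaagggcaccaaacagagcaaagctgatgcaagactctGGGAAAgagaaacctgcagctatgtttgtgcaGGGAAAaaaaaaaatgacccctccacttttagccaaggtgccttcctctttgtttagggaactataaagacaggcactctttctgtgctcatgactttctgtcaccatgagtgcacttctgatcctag
Try4, chr6:41302022-41302321, strand +: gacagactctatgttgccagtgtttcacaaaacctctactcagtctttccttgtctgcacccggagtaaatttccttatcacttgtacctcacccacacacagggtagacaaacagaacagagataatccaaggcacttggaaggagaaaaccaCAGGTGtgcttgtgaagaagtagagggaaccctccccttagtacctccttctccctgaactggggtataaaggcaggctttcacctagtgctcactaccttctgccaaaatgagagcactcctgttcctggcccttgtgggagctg
The Cela1 window holds CACCTG 109 bases and TTTCCC 99 bases before the start. Cela2a holds the reverse-strand forms 218 and 84 bases before it. Prss2 holds CACCTG at 169 and 2 reverse TTTCCC at 110 and 78 bases before the start, and Try4 has 1 reverse CACCTG at 96 bases and no TTTCCC in this window. Windows were found for 26 of the 32 members, 27 windows in all. CACCTG was present in 15 of the 27 (55.6%), against 20.2% of all 32851 windows of the table, and TTTCCC in 10 of the 27 (37.0%), against 25.2% of all windows. These are matches of letters and say nothing of binding. The 4 windows shown do not stand for all. Prss1 holds 2 of each motif and its diets overlapped, while Pnlip and Rnase1 hold neither motif and their diets did not overlap. A link between the motifs and the diets was not tested.

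The acinar genes reached high levels in a T cell preparation. Values were taken as FPKM, a level scaled for transcript length and for the size of the library, so levels of different genes can be set side by side. The summed FPKM of the 32 members was 1145 in deficient diet replicate 1 and 427 in deficient diet replicate 2, against 12202.5 in normal diet replicate 1 and 3468 in normal diet replicate 2. This was 0.306% and 0.111% of all FPKM in the deficient diet libraries, against 3.13% and 0.937% in the normal diet libraries. The 2 diets did not overlap, with normal diet replicate 1 far above the other libraries. The mean sum was 786 ± 508 FPKM on the deficient diet and 7835 ± 6176 FPKM on the normal diet (SD, n = 2 libraries per diet, as for all means here), a ratio of 0.1003. Without normal diet replicate 1 the ratio was 0.227. Within a diet the libraries also differed, by 2.68-fold between the deficient diet replicates and by 3.52-fold between the normal diet replicates, replicate 1 being the higher in each. In such bulk libraries fewer cells of a type and less RNA per cell cannot be told apart.

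For comparison, 18 genes of T cell identity, such as Cd3e of the CD3 complex and the adaptor Lat, together gave 3394 and 3827 FPKM on the deficient diet, against 4079 and 3340 FPKM on the normal diet. The acinar sum was thus 33.7% and 11.2% of the T cell sum on the deficient diet, against 299% and 104% on the normal diet. The T cell sum hides differences between its genes. In 11 of the 18 both deficient diet libraries lay below both normal diet libraries, against 25.5% of the 10423 genes of the filter given below. Cd3e and Lat were not among the 11. Among the 100 highest rows of a library there was no member in either deficient diet library, against 8 members in normal diet replicate 1 and 2 in normal diet replicate 2. Taking the members out would raise every other FPKM value by 0.307% and 0.111% in the deficient diet libraries, against 3.24% and 0.946% in the normal diet libraries.

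**Figure D1:**
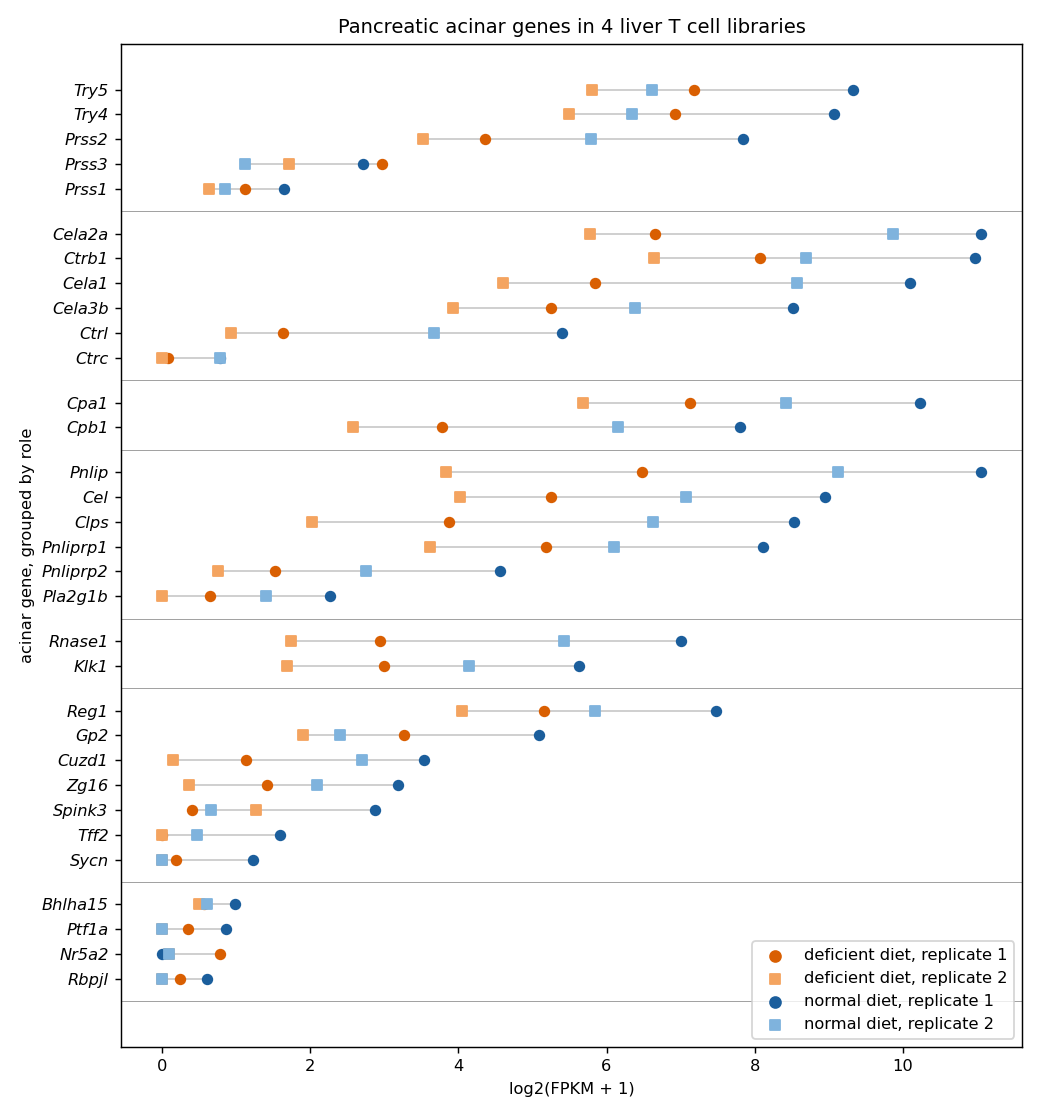
Level of each of the 32 acinar genes on the log2(FPKM + 1) scale (horizontal axis) in each of the 4 libraries, grouped by role from trypsinogens at the top to transcription factors at the bottom; grey lines join the lowest and the highest library. In 30 of 32 genes normal diet replicate 1 is the highest point, as it is for 12 of the 18 T cell identity genes (not drawn). The 4 transcription factors lie near 0.

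The levels followed nearly the same library order in most members. In 21 of the 32 the value was lowest in deficient diet replicate 2, followed by deficient diet replicate 1, normal diet replicate 2 and normal diet replicate 1. That order held for 8.24% of the 10423 genes that passed a filter on low values (1 FPKM or more in 2 libraries or more). Of the 32 members, 7 did not pass it, so the sets are not quite alike. Both deficient diet libraries lay below both normal diet libraries in 22 of 32 members, and in 19 of the 25 members that passed this filter; among all 10423 genes the share was 25.5%. No member had both deficient diet libraries above both normal diet libraries, against 30.7% of the 10423 genes. In limma on log2(FPKM + 1), 1 of the 25 filtered members, Cela2a, was lower on the deficient diet at an adjusted p of 0.05 and none was higher, against 1.53% of the 10423 genes called lower and 1.22% called higher. The members were chosen with this contrast known, so neither these counts nor those with a library left out support anything. Cela2a was also called without normal diet replicate 2, where 13 members passed and 3.54% of all genes were called. With any of the other 3 libraries left out no member was called, but neither was any other gene. The lack of calls there is therefore not particular to the members. The difference of mean log2(FPKM + 1), deficient minus normal, was below 0 in 24 of the 25 members and in 46.8% of the 10423 genes, with a median of -2.55 over these members and 0.040 over all genes.

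Elastases and chymotrypsinogens were the most abundant role, with 464 and 191 FPKM summed over 6 genes in the deficient diet libraries, against 5652 and 1827 FPKM in the normal diet libraries. Cela2a, an elastase, had 99.7 and 54.1 FPKM in the deficient diet libraries, against 2139 and 938 FPKM in the normal diet libraries. It averaged 76.9 ± 32.3 FPKM on the deficient diet and 1538 ± 849 FPKM on the normal diet, 20.01-fold lower on the deficient diet, with no overlap between the diets. Cela1, the second elastase, had 56.7 and 23.3 FPKM on the deficient diet, against 1095 and 381 FPKM on the normal diet. Cela3b, the third, had 37.0 and 14.2 FPKM on the deficient diet, against 365 and 82.5 FPKM on the normal diet. All 3 elastases were therefore lower in each deficient diet library than in each normal diet library. Ctrb1, chymotrypsinogen B, had 268 and 98.3 FPKM on the deficient diet, against 2012 and 413 FPKM on the normal diet. It was the most abundant member in both deficient diet libraries, whereas Cela2a was the most abundant in both normal diet libraries. Ctrl, a chymotrypsin-like protease, had 2.08 and 0.903 FPKM on the deficient diet, against 41.2 and 11.8 FPKM on the normal diet. Ctrc, chymotrypsin C, stayed at or below 0.721 FPKM in every library (0.0518 and 0 on the deficient diet, against 0.721 and 0.717 on the normal diet), although it is a product of the same cell. In GENCODE vM21, 42.1% of the 36-base words of Cela3b also occur in Cela3a, so reads may have been divided between these copies. Of the words of Cela2a 26.6% also occur in a transcript annotated to Ctrc, but the words of the coding transcripts of Ctrc are 100% unique.

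Carboxypeptidases, which remove amino acids from the ends of peptides, showed the same separation. Cpa1, carboxypeptidase A1, had 138 and 50.3 FPKM in the deficient diet libraries, against 1206 and 341 FPKM on the normal diet, and Cpb1, carboxypeptidase B1, had 12.7 and 4.98 FPKM on the deficient diet, against 223 and 69.9 FPKM on the normal diet. The mean of Cpa1 was 8.20-fold lower and that of Cpb1 16.6-fold lower on the deficient diet.

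All 6 genes of lipid digestion were lower in both deficient diet libraries than in both normal diet libraries. Pnlip, pancreatic triglyceride lipase, had 88.1 and 13.3 FPKM on the deficient diet, against 2128 and 559 FPKM on the normal diet. Its cofactor colipase, Clps, had 13.7 and 3.06 FPKM on the deficient diet, against 368 and 98.3 FPKM on the normal diet. These were among the widest gaps of the set, with means 26.5-fold lower for Pnlip and 27.8-fold lower for Clps. Cel, the bile salt-dependent carboxyl ester lipase, had 37.1 and 15.2 FPKM on the deficient diet, against 491 and 134 FPKM on the normal diet. The lipase-related genes Pnliprp1 and Pnliprp2 had means 7.35-fold and 11.1-fold lower on the deficient diet. Pla2g1b, a secreted phospholipase, was low throughout, at 0.570 and 0 FPKM on the deficient diet, against 3.81 and 1.64 FPKM on the normal diet. Rnase1, the pancreatic ribonuclease, had 6.71 and 2.32 FPKM on the deficient diet, against 127 and 41.8 FPKM on the normal diet, and Klk1, tissue kallikrein, had 6.97 and 2.22 FPKM on the deficient diet, against 48.6 and 16.7 FPKM on the normal diet. Klk1 belongs to a family of similar genes: only 59.9% of the 36-base words of its GENCODE vM21 transcripts occur in no other gene, so its value is less certain.

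Trypsinogens other than Prss2 overlapped between the diets. The means of Try4, Try5 and Prss1 were still 3.76-fold, 3.73-fold and 1.71-fold lower on the deficient diet, while that of Prss3 was 1.35-fold higher. Prss2, a trypsinogen, had 19.4 and 10.4 FPKM in the deficient diet libraries, against 228 and 54.5 FPKM in the normal diet libraries, with no overlap. Try4, another trypsinogen, had 121 and 43.9 FPKM on the deficient diet, against 538 and 80.5 FPKM on the normal diet. Try5 had 144 and 54.9 FPKM on the deficient diet, against 644 and 96.6 FPKM on the normal diet. In both genes deficient diet replicate 1 was above normal diet replicate 2, by 1.5-fold and 1.49-fold, so the diets overlapped. Prss3 had 6.82 and 2.29 FPKM on the deficient diet, against 5.56 and 1.17 FPKM on the normal diet, and Prss1 had 1.17 and 0.543 FPKM on the deficient diet, against 2.12 and 0.804 FPKM on the normal diet. Both overlapped between the diets too, and Prss3 had its highest value in a deficient diet library.

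Near-identical sequences limit single values of this family. Of the 36-base words in the transcripts of Try4, 21.4% occur in no other gene, and 53.9% also occur in Try5. The unique share was 43.0% for Try5, 34.4% for Prss1, 27.3% for Prss3 and 82.95% for Prss2. Reads of Try4, Try5, Prss1 and Prss3 may therefore have been split among copies, and their separate values are uncertain. Summed over these 4 genes, which depends little on a split among them, the level was 272 and 102 FPKM on the deficient diet, against 1189 and 179 FPKM on the normal diet, again with overlap. Of the 9 rows between Trbv30 and Trbd1, 7 were higher in deficient diet replicate 1 than in normal diet replicate 2. The exceptions were Prss2 and Try10. 2210010C04Rik, a trypsinogen-like gene of the same locus between Trbv1 and Trbv2, whose words are 100% unique, had 1.75 and 0.625 FPKM on the deficient diet, against 33.4 and 15.1 FPKM on the normal diet.

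Other secreted and granule proteins were mixed. Reg1, a regenerating lectin of acinar secretion, had 34.8 and 15.6 FPKM in the deficient diet libraries, against 177 and 56.5 FPKM in the normal diet libraries, without overlap. Gp2, the main membrane glycoprotein of zymogen granules, had 8.61 and 2.73 FPKM on the deficient diet, against 33.1 and 4.26 FPKM on the normal diet. Its 2 diets overlapped as those of Try4 and Try5 did, although all words of its transcripts (100%) are unique. Zg16, a granule lectin, had 1.67 and 0.284 FPKM on the deficient diet, against 8.12 and 3.25 FPKM on the normal diet, and Cuzd1 had 1.19 and 0.110 FPKM on the deficient diet, against 10.5 and 5.51 FPKM on the normal diet. Spink3, a trypsin inhibitor, had 0.324 and 1.42 FPKM on the deficient diet, against 6.32 and 0.586 FPKM on the normal diet, and was the only member higher in replicate 2 than in replicate 1 of the deficient diet. Tff2, a trefoil factor, was listed at 0 in both deficient diet libraries and had 2.02 and 0.380 FPKM in the normal diet libraries. Sycn, which encodes the granule protein syncollin, was listed at 0.140 and 0 FPKM on the deficient diet, against 1.33 and 0 FPKM on the normal diet. A 0 in a table without counts can be a failed estimate, so it is not read as absence here.

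The transcription factors of the acinar cell were near 0 in every library. Ptf1a was listed at 0.278 and 0 FPKM in the deficient diet libraries, against 0.809 and 0 FPKM in the normal diet libraries. Rbpjl, its partner in the PTF1 complex, was listed at 0.185 and 0 FPKM on the deficient diet, against 0.515 and 0 FPKM on the normal diet. Both were thus listed above 0 in replicate 1 of each diet and at 0 in replicate 2. Bhlha15, also called Mist1, which organises the secretory apparatus, had 0.478 and 0.412 FPKM on the deficient diet, against 0.978 and 0.521 FPKM on the normal diet, and Nr5a2, a nuclear receptor also used in liver, had 0.725 and 0.0642 FPKM on the deficient diet, against 0 and 0.0674 FPKM on the normal diet. Together with Ctrc these are the 5 members below 1 FPKM in every library. None passed the filter on low values, and neither did Sycn and Tff2.

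Ratios between members show how far the genes varied by a common factor from library to library. They were computed for the 18 members with at least 1 FPKM in every library, which give 153 gene pairs. The levels of these members varied across libraries by a median of 24.1-fold between the highest and the lowest library (range 5.81 to 161). The ratios between pairs varied less, with a median of 3.70-fold, and 33 of 153 ratios (21.6%) varied by under 2-fold. A further 29 ratios varied by over 10-fold, and 26 of these involve Try4, Try5, Prss3 or Gp2. The ratios share 4 libraries and are no independent observations, so no p is given.

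Several ratios varied by less than 1.5-fold over the libraries. Rnase1 to Cela1 was 0.118 and 0.0996 in the deficient diet libraries, against 0.116 and 0.110 in the normal diet libraries. Cpb1 to Cela1 was 0.224 and 0.214 on the deficient diet, against 0.203 and 0.184 on the normal diet. These ratios varied by 1.19-fold and 1.22-fold while the level of Cela1 varied from 23.3 to 1095 FPKM over the libraries. Cela3b to Ctrb1 was 0.138 and 0.145 on the deficient diet, against 0.181 and 0.200 on the normal diet, and Clps to Pnlip was 0.155 and 0.231 on the deficient diet, against 0.173 and 0.176 on the normal diet. Try4 to Try5 was 0.841 and 0.800 on the deficient diet, against 0.836 and 0.833 on the normal diet, but these 2 genes share much of their sequence. Gp2 to Try5, which share no such words, was 0.0599 and 0.0497 on the deficient diet, against 0.0514 and 0.0440 on the normal diet.

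Cpb1 to Cela1 and Cela3b to Ctrb1, although narrow in range, did not overlap between the diets, and the other 4 ratios did. Wider ratios separated the diets further. Try5 to Cela2a was 1.44 and 1.02 in the deficient diet libraries, against 0.301 and 0.103 in the normal diet libraries, a 14.0-fold range. Gp2 to Cela2a was 0.0864 and 0.0504 on the deficient diet, against 0.0155 and 0.00454 on the normal diet, a 19.0-fold range. In both the deficient diet libraries were the higher ones. The ratios that avoid the near-identical trypsinogens also differed: Ctrb1 to Cela2a was 2.69 and 1.82 on the deficient diet, against 0.941 and 0.441 on the normal diet, and Cpa1 to Cela2a was 1.39 and 0.931 on the deficient diet, against 0.564 and 0.364 on the normal diet. Pnlip to Cela2a was 0.883 and 0.245 on the deficient diet, against 0.995 and 0.597 on the normal diet, with overlap.

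As shares of the acinar sum, trypsinogens made up 25.5% and 26.2% in the deficient diet libraries, against 11.6% and 6.74% in the normal diet libraries. Lipases, colipase and phospholipase made up 15.4% and 10.2% on the deficient diet, against 26.9% and 25.01% on the normal diet. Chymotrypsins and elastases made up 40.5% and 44.7% on the deficient diet, against 46.3% and 52.7% on the normal diet, while carboxypeptidases kept close to the same share, at 13.2% and 13.0% on the deficient diet, against 11.7% and 11.9% on the normal diet. Secreted and granule proteins made up 4.08% and 4.71% on the deficient diet, against 1.95% and 2.03% on the normal diet. The shares of the 2 diets did not overlap in any of the 7 roles, ribonuclease with kallikrein and the transcription factors included, and in percentage points the gap was widest for trypsinogens. As a ratio it was wider for the transcription factors, at 0.146% and 0.111% on the deficient diet, against 0.0189% and 0.0170% on the normal diet, which rest on values near 0. Shares of a sum depend on each other, so these are not 7 separate observations.

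**Figure D2:**
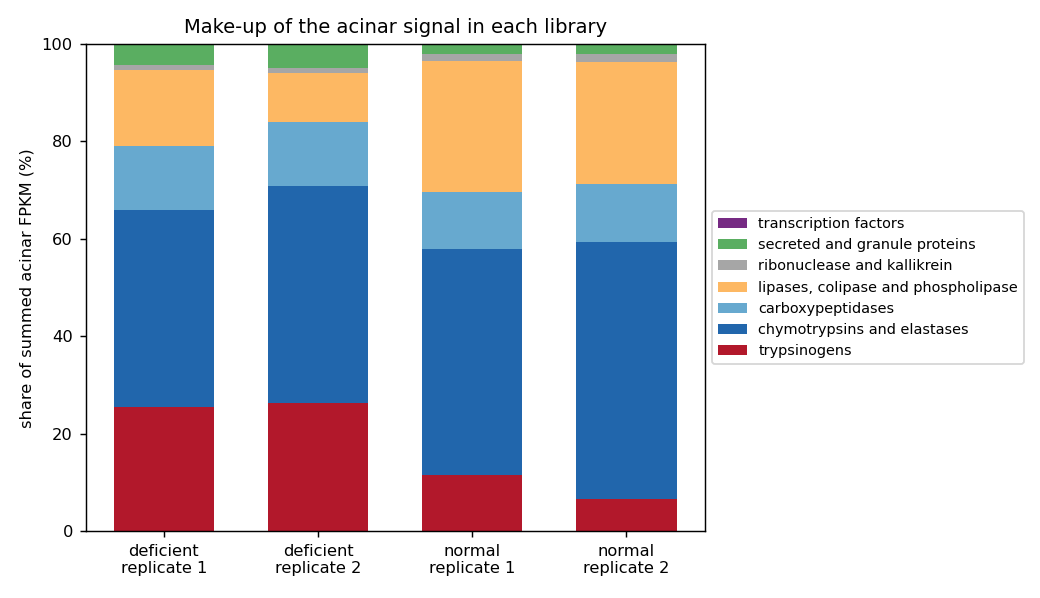
Share of the summed acinar FPKM (vertical axis, percent) taken by each role in each library; each bar sums to 100%. Trypsinogens (bottom) take 25.5% and 26.2% in the deficient diet libraries, against 11.6% and 6.74% in the normal diet libraries; transcription factors are too small to see.

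Single members differed in how constant their share was. Over the 4 libraries the SD of the log2 share had a median of 0.57 over the 18 members, against a median SD of 1.95 for the log2 level itself. Cel and Cpa1 kept the most constant shares, with an SD of 0.14 and 0.16. Prss3 (2.23), Gp2 (1.21), Pnlip (1.16), Try5 (1.07) and Try4 (1.05) varied most. By the same measure, lists of other cells, each relative to its own sum, had a median SD of 0.30 for 10 sinusoidal endothelial genes, 0.52 for 7 macrophage and neutrophil genes and 0.75 for 9 hepatocyte genes. It was 0.59 for 8 further acinar genes and 1.55 for 9 B cell and plasma cell genes, whose shares varied more than their levels (1.37). For 18 T cell identity genes it was 0.25, against 0.28 for their levels, so there the share was about as variable as the level.

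Between the 2 replicates of a diet the members scaled more evenly than between diets. Between the deficient diet replicates the median member was 2.74-fold higher in replicate 1, with an interquartile range of 0.32 on the log2 scale. Between the normal diet replicates it was 3.77-fold higher in replicate 1, with an interquartile range of 0.57. For the 4 pairs of 1 deficient diet and 1 normal diet library the interquartile ranges ran from 1.64 to 2.06. This was not particular to acinar genes. For T cell identity genes the ranges were 0.13 and 0.25 within diets, against 0.39 to 0.79 between them. For hepatocyte genes they were 0.90 and 0.50 within diets, against 1.01 to 2.27 between them. In the macrophage and neutrophil, endothelial and B cell lists the ranges within and between diets overlapped.

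**Figure D3:**
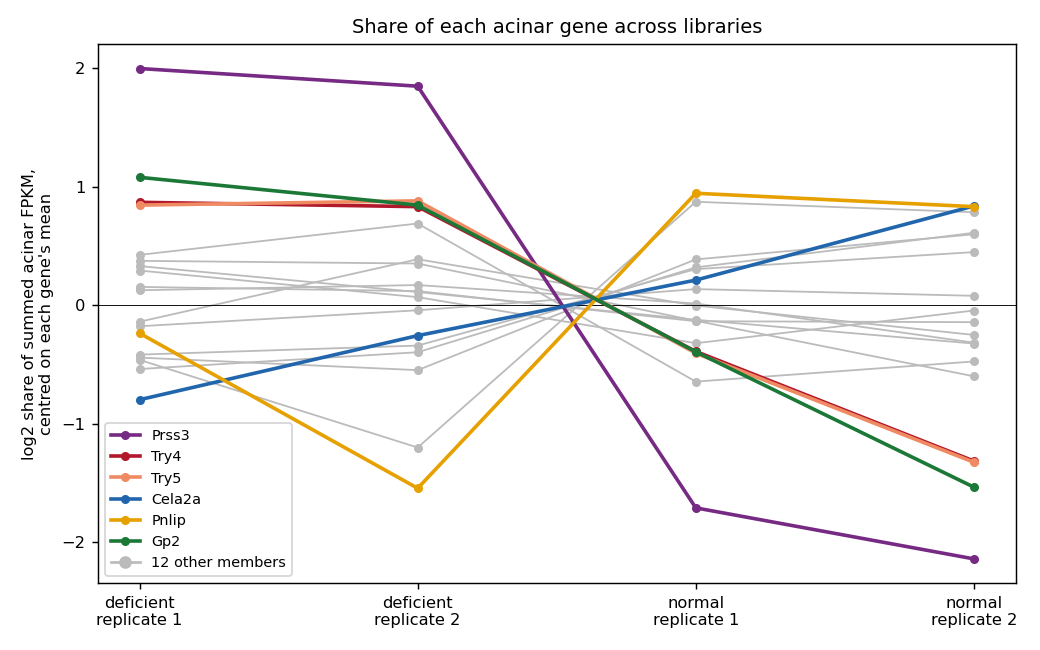
Log2 share of the summed acinar FPKM for the 18 acinar genes that reached 1 FPKM in all libraries (vertical axis, centred on each gene's mean over the libraries); lines join the values of 1 gene and imply no order of libraries. Prss3, Gp2, Try4 and Try5 take larger shares in both deficient diet libraries, Pnlip and Cela2a in both normal diet libraries.

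Acinar genes outside the set were mostly highest in the same library, normal diet replicate 1 (24 of 28). So were 12 of the 18 T cell identity genes, and the share over all genes was not counted. Of 35 further genes of the exocrine pancreas, 28 have a row and 15 passed the filter, of which 1, 2210010C04Rik, was called lower on the deficient diet and none higher, against 1.53% of all 10423 genes called lower and 1.22% called higher. This list, too, was drawn up with the contrast known. Both deficient diet libraries lay below both normal diet libraries in 11 of the 28, against 25.5% of the 10423 genes. These are unlike sets, since the 28 include rows that failed the filter and the 10423 do not. Gm5771, a trypsinogen-like row of the T cell receptor beta locus, had 22.8 and 11.3 FPKM on the deficient diet, against 73.6 and 12.2 FPKM on the normal diet, and overlapped. The amylase genes are present as 9 rows, some of them repeated loci with near-identical sequence, so only their sum is firm. It was 398 and 128 FPKM in the deficient diet libraries, against 1574 and 706 FPKM in the normal diet libraries. This sum showed the library order of most members.

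Markers of other pancreatic cells were near 0 or followed another library order. Of 21 islet genes 9 have a row, and 8 of these were below 1 FPKM in every library. The insulin gene Ins1 was listed at 0 in all libraries and the glucagon gene Gcg at 0.0428 FPKM at most, in deficient diet replicate 1. The exception, the granule chaperone Scg5, had 4.77 and 5.77 FPKM in the deficient diet libraries, against 1.20 and 0.108 FPKM in the normal diet libraries. Genes of ducts summed to 202 and 103 FPKM on the deficient diet, against 29.0 and 171 FPKM on the normal diet, of which Spp1, also made by immune cells, held 175 and 85.5 FPKM on the deficient diet, against 15.1 and 141 FPKM on the normal diet. Cftr, the chloride channel of duct cells, stayed at 0 on the deficient diet and at 0.0503 and 0.0376 FPKM on the normal diet. Of the 11 intestinal and gastric epithelial genes with a row, 9 were below 1 FPKM in every library. The exceptions were Fabp1, a fatty acid binding protein that liver also makes, with 1.73 and 0 FPKM on the deficient diet, against 5.21 and 44.5 FPKM on the normal diet, and the lysozyme gene Lyz1, with 9.24 and 1.21 FPKM on the deficient diet, against 0.444 and 7.73 FPKM on the normal diet. Fabp1 was lower in both deficient diet libraries than in both normal diet libraries, but highest in normal diet replicate 2, as was the sum of this list at 53.5 FPKM. The 2 salivary gland genes were at or near 0.

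Markers of hepatocytes, of macrophages and neutrophils and of endothelium, cells that a CD45+ CD3+ gate should remove, followed another library order. Hepatocyte genes (24 with a row) gave a sum of 222 and 122 FPKM on the deficient diet, against 38.9 and 304 FPKM on the normal diet. Macrophage and neutrophil genes (16) summed to 1616 and 1017 FPKM on the deficient diet, against 195 and 2846 FPKM on the normal diet, and sinusoidal endothelial genes (12) to 431 and 131 FPKM on the deficient diet, against 77.8 and 848 FPKM on the normal diet. Each of the 3 sums was lowest in normal diet replicate 1, the library with the highest acinar sum. Normal diet replicate 1 was the lowest library for 18 hepatocyte, 13 macrophage and neutrophil and 9 endothelial genes, and the highest for no gene of the 3 lists. None of these markers passed limma in either direction. Of the genes of the sort gate, Ptprc, which encodes CD45, and Cd3e were abundant. Ptprc had 209 and 220 FPKM on the deficient diet, against 424 and 309 FPKM on the normal diet, and Cd3e had 496 and 700 FPKM on the deficient diet, against 460 and 348 FPKM on the normal diet. Ptprc and the genes of the negative gates were lower in both deficient diet libraries than in both normal diet libraries. This was so for 5 of the 6 sort gate genes, 11 of the 18 T cell identity genes and most acinar genes. Over all 10423 genes the share was 25.5%. None of the 6 sort gate genes was called by limma. Klrb1c, which encodes NK1.1, had 5.34 and 2.96 FPKM on the deficient diet, against 18.3 and 13.8 FPKM on the normal diet, in the same library order as most members. Cd8a, a chain of CD8, had 0.836 and 1.42 FPKM on the deficient diet, against 22.4 and 8.26 FPKM on the normal diet. Cd8b1, its partner chain, had 13.4 and 14.0 FPKM on the deficient diet, against 25.2 and 19.3 FPKM on the normal diet, and Cd4 had 0.618 and 2.44 FPKM on the deficient diet, against 3.86 and 4.11 FPKM on the normal diet. Ptprc, Klrb1c, Cd8a and Cd8b1 were highest in normal diet replicate 1, as the acinar sum and 12 of the 18 T cell identity genes were. Cd4 was highest in normal diet replicate 2. The part of cells outside the gate in the acinar levels was not tested.

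**Figure D4:**
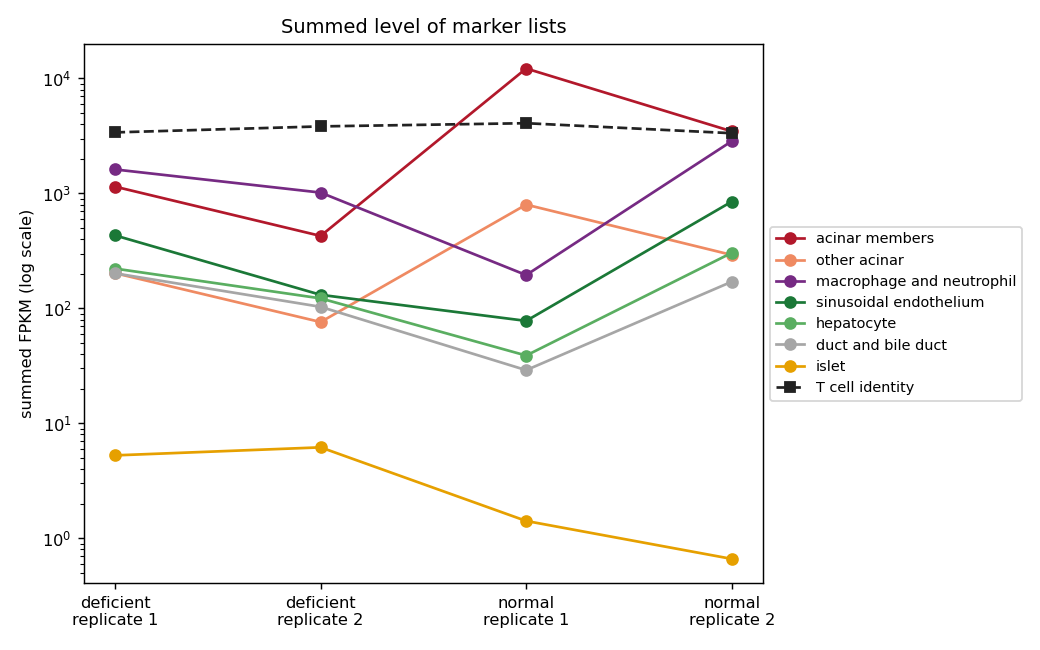
Summed FPKM (vertical axis, log scale) of the acinar members and of 7 marker lists in each library; lines join the values of 1 list and imply no order of libraries. The acinar sums peak in normal diet replicate 1, at 12202.5 FPKM, where the hepatocyte, duct, macrophage and endothelial sums are lowest. The T cell identity sum stays between 3340 and 4079 FPKM.

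Genes outside the set whose centred log2 profile over the 4 libraries lay nearest to the mean profile of the 10 most abundant members were sought among 5176 genes with a mean of at least 10 FPKM. Among the 10 nearest were 2210010C04Rik, Slamf7, Amy2a5 (a repeated locus), Arl8a, Xcl1, Cd200r4, Klrg1 and Ifng, and the 10 lay at Euclidean distances of 0.850 to 1.21, against a median of 3.80 over all candidates. 2210010C04Rik and the amylase row are acinar genes. Genes known from lymphocytes share the profile as well: Ifng, the cytokine interferon gamma, had 91.4 and 73.7 FPKM on the deficient diet, against 1533 and 787 FPKM on the normal diet. With 4 libraries such likeness is a description only.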

How the data were processed

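The deposited table gives 1 value per gene and library for 4 libraries, without coordinates. The values the authors deposited behave as FPKM, although neither labels nor header name the unit. The submitters' processing notes name Bowtie 0.12.2 and the genome build mm8. What quantifier, annotation or filter followed is not given in the sources used here. Sorted cells were lysed in Trizol and libraries made with an Illumina TruSeq kit, per the labels' protocols. FPKM keeps no reads, so depth, and with it precision, is unknown.

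Columns were matched to samples by title and grouped by the diet label. Members and gene lists were chosen with earlier results of these data known. Limma 3.58.1 in R 4.3.3 was run on log2(FPKM + 1) for 10423 genes (1 FPKM or more in 2 libraries or more), with a mean-variance trend, diet as the only factor and a Benjamini-Hochberg adjusted p of 0.05. This scale understates changes of low genes. The step was also run on simulated data with noise drawn separately for each gene, and nothing is read from that run here. An exact permutation test of 2 against 2 libraries cannot go below 0.333. Sums, shares and ratios used FPKM as deposited with Python 3.11.15. Words of 36 bases were counted in GENCODE vM21 transcripts; the read length was not known. Promoters came from RefSeq, and 6 members had no window there. The rule named all members, the 4 most abundant genes of each other list and the 10 nearest profiles. Ins1, Gcg, Cd8a, Cd4, Cftr and Try10 fall outside it, chosen with their values in view, and some genes the rule names are not reported here.

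Alternatives were other pseudocounts, filters and scalings, limma without the trend, each library left out, and the replicate number as a block. The same-numbered libraries of the diets deviated in opposite ways (Pearson's r = -0.284 across 10423 genes), so a block with crossed numbers was added after seeing the data.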

Additional observations from a re-analysis of the deposited data

How the results depend on the processing

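The acinar sum kept its direction under every alternative tried. The ratio of its diet means, deficient over normal, was 0.0995 for members with a mean of at least 10 FPKM, 0.127 without the 3 most abundant members, 0.107 with quantile normalization and 0.111 relative to the T cell identity sum, against 0.1003 as reported. With 1 library left out it ran from 0.0545 to 0.227, the last without normal diet replicate 1. The median SD of the log2 shares lay between 0.48 and 0.68 under its alternatives. The number of members called depended on the settings: 2 with a pseudocount of 5, a filter of 5 FPKM or median centring, 5 with quantile normalization, 0 without a filter or without the trend, and 0 to 13 with 1 library left out, against 1 as reported. Over all genes 286 were called as reported. The count was 321 with a pseudocount of 5, 387 of 7341 genes with a filter of 5 FPKM, 336 with median centring and 467 with quantile normalization. It was 141 without the trend, 0 without a filter (2768 at an unadjusted p under 0.05) and 0 to 352 with 1 library left out. The settings with more members called than reported thus also had more genes called. In limma the counts of 0 arose without normal diet replicate 1 and without either deficient diet replicate, with 1670, 2029 and 1337 genes at an unadjusted p under 0.05. The cause of these changes was not tested; with 1 library left out the fit has fewer samples. The replicate block gave 0 calls (1844 at an unadjusted p under 0.05) and 0 members, and the block with crossed numbers 52 calls and 0 members; the numbers are not known to pair the libraries. Among the members' log2 differences that the refits gave, only those of Prss3 and Gp2 turned sign. A member that failed the filter in a refit has no difference there, so its sign was not followed. With a library left out, this was so for Prss1, Pla2g1b and Spink3 without normal diet replicate 1. Prss1 also failed the filter without deficient diet replicate 1, Pla2g1b without normal diet replicate 2 and Spink3 without deficient diet replicate 2. Filters, blocks and the trend leave these differences as they are by construction. Prss3, at 0.43 as reported, turned to -0.37 without normal diet replicate 2 and to -0.20 without deficient diet replicate 1, within a range of -0.37 to 1.22 over the libraries left out. Gp2, at -1.16 as reported, turned to 0.19 without normal diet replicate 1, within a range of -2.51 to 0.19. Depth is unknown, so no floor can be set for genes listed at 0.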

Other observations

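Genes of the secretory pathway, which acinar cells share with every secreting cell, did not show the library order of the enzymes. The 16 listed genes gave 2019 and 1917 FPKM in sum on the deficient diet, against 1877 and 2087 FPKM on the normal diet, and none passed limma. Hspa5, the main chaperone of the endoplasmic reticulum, had 976 and 829 FPKM on the deficient diet, against 733 and 868 FPKM on the normal diet, and Calr, calreticulin, had 247 and 270 FPKM on the deficient diet, against 332 and 356 FPKM on the normal diet. Among 14 rows of B and plasma cell genes, Sdc1, the syndecan CD138, was called higher on the deficient diet, at 339 and 328 FPKM on the deficient diet, against 49.9 and 63.5 FPKM on the normal diet, while the immunoglobulin joining chain Igj had 15.0 and 13.9 FPKM on the deficient diet, against 29.6 and 63.0 FPKM on the normal diet. Genes of fibroblasts and stellate cells summed to 32.4 and 23.4 FPKM on the deficient diet, against 14.0 and 52.4 FPKM on the normal diet, with the collagen Col3a1 at 0.554 and 0 FPKM on the deficient diet, against 0.874 and 4.67 FPKM on the normal diet. Like the hepatocyte and macrophage sums, that sum was lowest in normal diet replicate 1.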
